A study of Mus musculus with 6 samples.

Results

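The genes that encode the factors of translation initiation and elongation were followed in 6 mouse liver tumour cell lines. They were taken as the rows of the count table whose gene name begins with Eif and a number from 1 to 6, or with Eef and 1 or 2. Of 77 such rows, 8 pseudogenes and Eif2c5, which is not protein coding in the GENCODE M21 annotation, were left out, so that 68 of 53465 genes remained. RNA sequencing had been done on 3 lines with the label Myc_Utx (2A, 2B and 2D) and 3 lines of a second genotype (1, 2 and 3), called Myc;sgKdm6a and comparison lines here, Utx being another name of Kdm6a. Every line was grown from a liver tumour of an adult female C57BL/6 mouse, after a c-myc transposon, driven by the promoter of an eEF1A gene (EF1a), and Cas9 with a guide RNA (for Myc;sgKdm6a lines one that targets Kdm6a, for comparison lines one that targets another gene) had been brought into hepatocytes by tail vein injection. Both groups therefore carry the Myc transgene and differ in the gene that was targeted, and no line without either guide was sequenced, so that the effects of the 2 targeted genes cannot be told apart. The study calls the 3 lines of a group independent, and each is taken here to stand for 1 tumour. Whether the lines of a group came from different mice is not stated.

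Initiation places a ribosome on the start codon of an mRNA. The eIF2 complex brings the initiator tRNA to the small ribosomal subunit, eIF2B reloads eIF2 with GTP, and kinases that phosphorylate eIF2 block this reloading under stress. The eIF4F complex, made of the cap-binding eIF4E, the scaffold eIF4G and the helicase eIF4A, recruits the mRNA, and eIF3 joins it to the small subunit. The 4E-binding proteins, which mTORC1 inactivates by phosphorylation, hold eIF4E away from eIF4G. During elongation eEF1A delivers aminoacyl-tRNA, the eEF1B subunits recharge eEF1A, and eEF2 moves the ribosome along. Many of these genes are known Myc targets, and mRNAs of elongation factors and of several initiation factors start with a run of pyrimidines through which mTORC1 controls their translation.

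Of the 68 genes, 67 had at least 1 count and 62 had enough counts to be tested. At an adjusted p under 0.05 (quasi-likelihood F test of edgeR, Benjamini-Hochberg adjustment over all 11510 genes tested), 17 of the 62 factor genes rose in Myc;sgKdm6a relative to comparison lines and 0 fell. Over all genes tested, 6.99% were higher and 7.69% lower by the same rule. At an unadjusted p under 0.05, 31 factor genes were higher and 2 lower, against 1916 and 2110 of all 11510 genes tested. Positive log2 fold changes stand for levels that are higher in Myc;sgKdm6a lines, and 57 of the 62 values were above 0. Their median was 0.36, against -0.01 over all genes tested, and they ranged from -0.55 for Eif2ak3 to 1.12 for Eif3f. All 3 Myc;sgKdm6a lines were above all 3 comparison lines for 35 factor genes and below them for 2, Eif4a2 and Eif4enif1, whereas 21.1% of all genes were without overlap in the first direction and 20.9% in the second. DESeq2 called 23 factor genes higher, the 17 among them, and 0 lower, with 9.57% of all its tested genes higher and 11.8% lower.

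**Figure D1:**
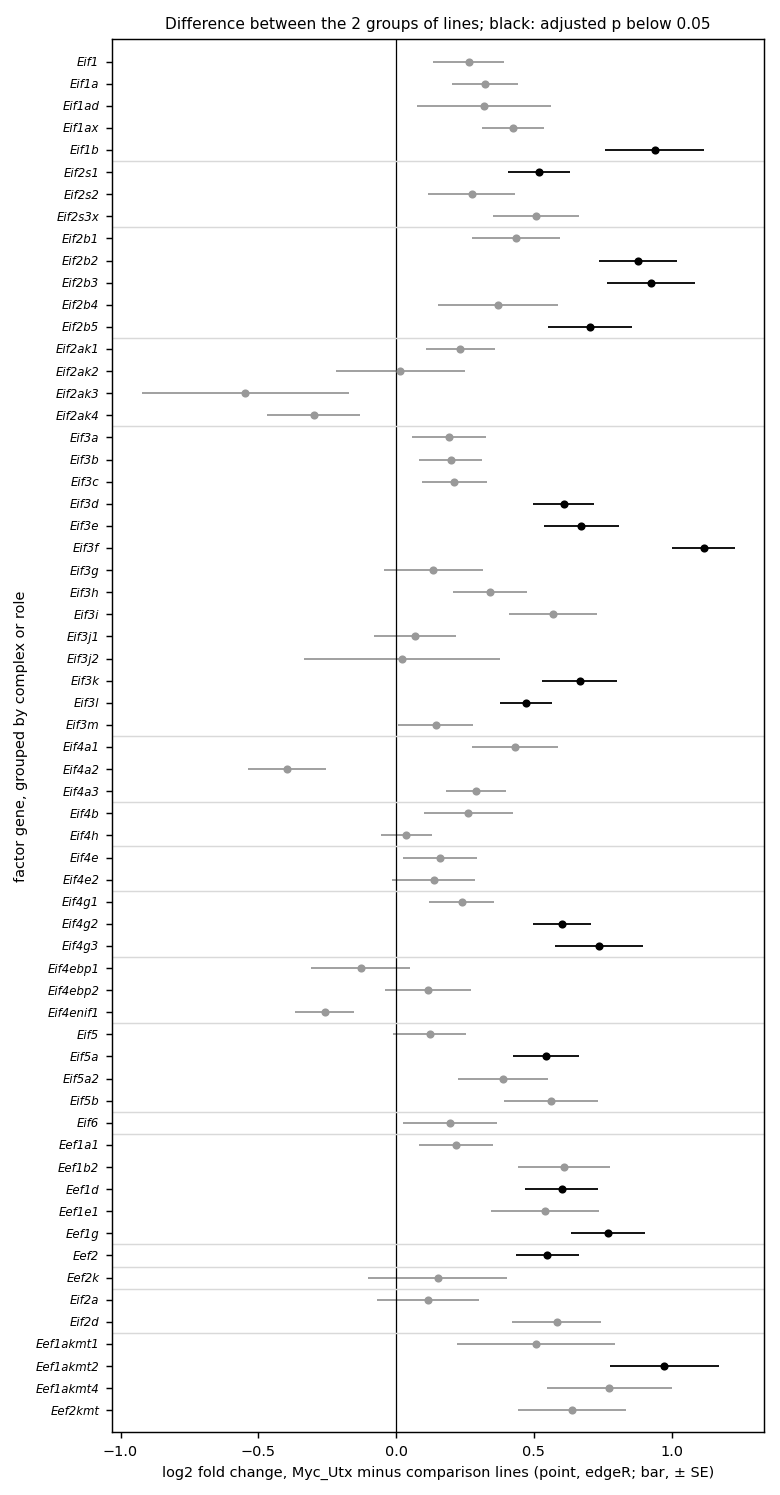
Log2 fold change of each of the 62 tested factor genes (horizontal axis, Myc_Utx, that is Myc;sgKdm6a, minus comparison lines; points with bars of 1 SE from edgeR), grouped by complex or role on the vertical axis. The 17 black points have an adjusted p under 0.05 and all lie above 0, while 5 points lie below 0.

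The number of calls depended on single lines, for the factor genes and for all genes alike. With 1 line left out, 0 factor genes were called higher without Myc;sgKdm6a 2A, 1 without 2B, 0 without 2D, 9 without comparison line 1, 20 without comparison line 2 and 1 without comparison line 3. In these fits between 0.0249% and 7.01% of all genes were called higher. The median log2 fold change of the factor genes stayed between 0.30 and 0.45, 54 to 57 of them were above 0, and 24 to 32 were higher at an unadjusted p under 0.05. The count over all genes at this unadjusted threshold was not taken for these fits. No call to be lower arose in any of these fits.

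**Figure D2:**
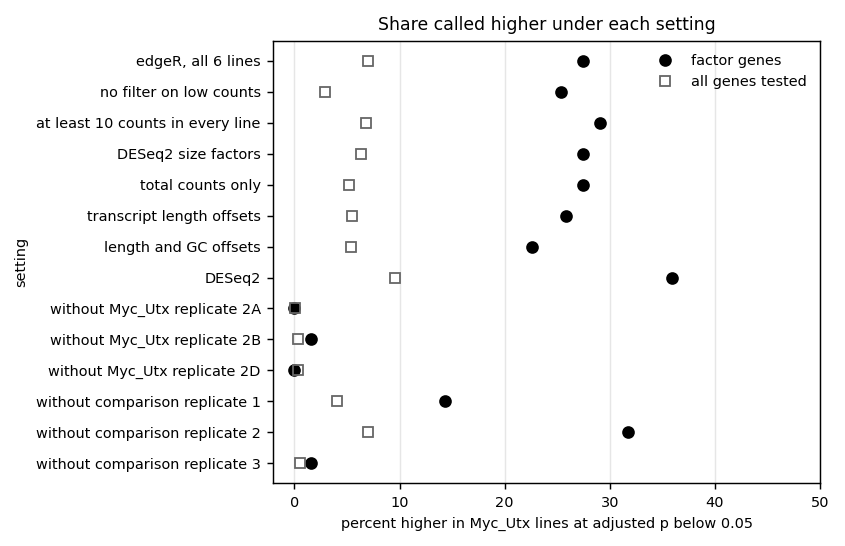
Percent of genes called higher in Myc;sgKdm6a cell lines at an adjusted p under 0.05 (horizontal axis) under each setting (vertical axis), for factor genes (black points) and for all genes tested (open squares). In the fit with all 6 lines 27.4% of factor genes and 6.99% of all genes were called, and both shares were near 0 without Myc;sgKdm6a 2A, 2B or 2D or without comparison line 3.

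Total counts ranged from 4656103 to 6937497 per library. Counts of Kdm6a mRNA were 199, 244 and 220 in Myc;sgKdm6a and 440, 348 and 298 in comparison lines (log2 fold change -0.39, adjusted p = 0.243), which does not check the label, since reads of an edited transcript are still counted. Markers of differentiated hepatocytes were close to absent: the 10 of them summed to 3.12 to 9.74 CPM (TMM-scaled counts relative to library size) in Myc;sgKdm6a and 18.0 to 69.6 in comparison lines, with at most 26 counts of Alb in any line. The 3 epithelial markers Krt8, Krt18 and Cdh1 summed to 0.223 to 85.8 CPM in Myc;sgKdm6a lines and to 1201, 38.9 and 803 in comparison lines 1, 2 and 3. Krt8 and Krt18 overlapped between the groups, whereas Cdh1, at 0, 0.374 and 0.223 against 12.3, 3.52 and 42.2 CPM, fell (adjusted p = 0.0274). Of 10 macrophage markers, 9 had more than 3 counts in every comparison line and 2 in every Myc;sgKdm6a line, with sums of 60.2 to 134 and 37.6 to 56.0 CPM and Ptprc at 3 counts or fewer in all lines. Cd14 made up most of the Myc;sgKdm6a sums, with 53.2, 34.3 and 32.3 CPM against 19.3, 18.9 and 21.7, and rose (adjusted p = 0.0399), whereas Csf1r, Lyz2, C1qa, C1qb and C1qc fell (5 of 7 tested, adjusted p 0.0164 to 0.0306). Csf1r was at 0, 0.187 and 0 CPM against 40.9, 7.23 and 34.6, and Lyz2 at 0, 0.936 and 0 against 32.2, 19.3 and 48.1. The 8 fibroblast or stellate markers summed to 1946 to 2679 CPM in Myc;sgKdm6a lines but to 35.9, 3151 and 500.5 in comparison lines. Most of the Myc;sgKdm6a sum was Col3a1 (1730.5 to 2558 CPM), while Col1a1, Col1a2 and Pdgfra had lower means there with overlap and Dcn, at 0 to 0.562 against 1.67 to 15.5 CPM, was lower without it. The 5 biliary markers summed to 510.4 to 1441 and 153 to 1462 CPM. Spp1, which overlapped, was the largest part of the sum in every line. Krt19 was lower without overlap, at 46.7, 4.68 and 28.7 CPM against 330, 60.2 and 352 (log2 fold change -3.22, adjusted p = 0.0653). Krt7, not tested in edgeR, was also lower without overlap, at 0.199, 0 and 0.445 CPM against 15.8, 0.556 and 65.4. Sox9 (log2 fold change 0.94, adjusted p = 0.131) and Epcam overlapped. The 6 endothelial markers reached at most 2.53 CPM, with Pecam1 at 0 in all Myc;sgKdm6a lines. The part of these markers in the results was not tested, and a change in the share of a cell type cannot be told apart from a change in RNA per cell.

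The 68 genes together took 3.71%, 3.58% and 3.85% of all counts in Myc;sgKdm6a 2A, 2B and 2D and 3.18%, 3.05% and 2.84% in comparison lines 1, 2 and 3. Every Myc;sgKdm6a line was above every comparison line, with means of 3.71% ± 0.136 and 3.02% ± 0.171 (SD, n = 3 each). Eef1a1 alone took 0.788% to 1.06% of the counts in a line and overlapped between the groups. Without Eef1a1 and Eef2, the other genes took 2.08% to 2.28% in Myc;sgKdm6a and 1.70% to 1.79% in comparison lines. The ribosomal protein genes, whose mRNAs share the pyrimidine start, took 5.22% to 6.59% and 3.56% to 4.44% of the counts. Among the tested factor genes, Myc;sgKdm6a 2D had the highest level of the 6 lines for 35, 2B for 12 and 2A for 7, whereas the lowest level was in a comparison line for 17, 23 and 19 genes (lines 1, 2 and 3). For the tested factor genes, the median SD of log2 CPM within a group was 0.13 in Myc;sgKdm6a and 0.18 in comparison lines. Over all tested genes with a mean of at least 50 counts it was 0.17 and 0.25.

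**Figure D3:**
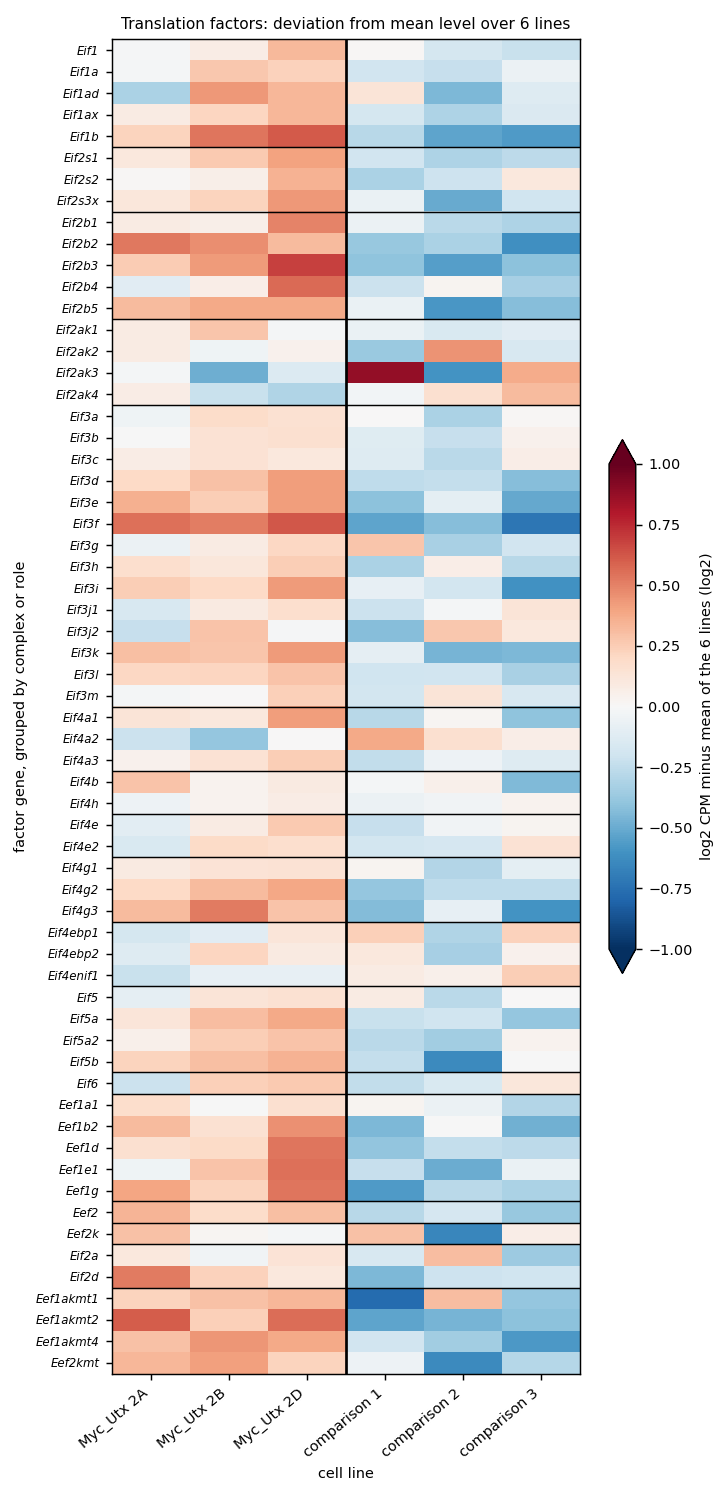
Level of each tested factor gene (rows, grouped by complex or role) in each line (columns) as log2 CPM minus the gene's mean over the 6 lines, from blue (1 log2 unit or more below) to red (1 or more above). The 3 left columns (Myc_Utx, the Myc;sgKdm6a lines) are mostly red and the 3 right columns (the comparison lines) mostly blue, with Eif4a2, Eif4enif1, Eif2ak3 and Eif2ak4 among the exceptions.

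RefSeq promoter sequences (GRCm38.p6, 250 bases before to 50 after each start) were at hand for 52 of the 68 genes. The E-box CACGTG, a palindrome to which Myc and Max are known to bind, was in a promoter of 13 of the 52 (25.0%), against 12.3% of 8860 tested genes and 8.09% of all 27025 genes with a promoter. Among the factor genes that rose it was in 5 of 12, and among the other tested ones in 8 of 38. The motifs of these 5 are shown as genomic sequence of the gene's strand, with the motif in capitals. Each is given with the distance from the first base of the motif to the start.
Eif3f, chr7:108934330-108934369, plus strand, 68 bases before the start: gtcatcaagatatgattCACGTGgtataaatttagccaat
Eif3k, chr7:28981910-28981949, minus strand, 44 bases before: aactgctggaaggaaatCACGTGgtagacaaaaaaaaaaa
Eif1b, chr9:120492565-120492604, plus strand, 24 bases before: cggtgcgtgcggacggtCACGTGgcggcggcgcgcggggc
Eef2, chr10:81176571-81176610, plus strand, 43 bases before: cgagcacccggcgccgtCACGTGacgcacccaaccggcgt
Eif5a, chr11:69921438-69921477, minus strand, 74 and 185 bases before different starts: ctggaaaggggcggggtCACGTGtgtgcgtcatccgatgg
Eif5a, chr11:69920786-69920825, minus strand, 178 bases before a further start: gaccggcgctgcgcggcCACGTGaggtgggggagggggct
Only motifs that lie wholly upstream of the annotated start were printed, so this position was set by the choice and is no result. The other 8 genes with the motif were Eif5a2, Eif4e, Eif4h, Eef2k, Eif4a1, Eef1akmt4, Eif4g1 and Eif3a. The TGATGCAAT element, in the form searched on both strands and known from genes that ATF4 induces, was in 0 of the 52 and in 0.169% of tested genes. A match in these windows is a description and not evidence of binding.

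A pyrimidine start, searched on the sense strand as a C followed by at least 4 more C or T within 5 bases of the RefSeq start, was found in 14 of the 52 factor genes (26.9%) and in 23.8% of tested genes. The share changed with the distance allowed, to 3.85% exactly at the start (3.02% of tested genes) and 34.6% within 10 bases (37.2%). Eef1a1 had such a start within 5 bases, while Eef2, which rose, and Eef1b2 had none within 10 bases. The search rests on the annotated start, so a missing match does not show that the mRNA lacks a pyrimidine start. Eef1g, Eef1d, Eif3e, Eif2b3 and Eif4g2 rose but had no promoter sequence here. Among the 12 genes that rose and had a promoter, Eif3f, Eif3l, Eif2b2 and Eif2b5 had a pyrimidine start within 5 bases. The 30 bases around their starts are shown, 10 before and 20 from the start on. Capitals mark the longest such run that begins within 5 bases of the start.
Eif3f, chr7:108934405-108934434, plus strand: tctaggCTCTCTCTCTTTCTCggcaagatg
Eif3l, chr15:79075213-79075242, plus strand: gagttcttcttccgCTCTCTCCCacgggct
Eif2b2, chr12:85219471-85219500, plus strand: ccgagcggaagttgaCCTCTCTCggcccgg
Eif2b5, chr16:20498807-20498836, plus strand: ctctttCTCTCCCTgcaactacaccttcgc
The stretches of Eif3f and Eif2b5 span the annotated start, and in Eif2b5 the pyrimidines go on upstream of the capitals. In Eif3l a shorter run, left in lower case, begins 5 bases before the start and also spans it. Levels of mRNA do not report the translation that such a start controls.

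The factors eIF1 and eIF1A keep the scanning ribosome open and pick the start codon. Among the 5 genes with these names, Eif1b rose and the others did not pass the test (1 of 5 higher, 0 lower, median log2 fold change 0.32). Eif1ad is counted here by its name and not by a role in scanning. Eif1b, a near relative of Eif1, had 32.5, 40.4 and 42.8 CPM in Myc;sgKdm6a and 22.8, 19.1 and 18.5 in comparison lines. The groups did not overlap, with a log2 fold change of 0.94 (SE 0.18, adjusted p = 0.0263). It shares 143 bases of exon with D830035M03Rik on the other strand, and with offsets for length and GC content its adjusted p was 0.0594. Eif1 had 337, 358 and 425 CPM against 342, 300.3 and 291, a difference within the overlap of the lines (log2 fold change 0.26, adjusted p = 0.196). The ratio of Eif1b to Eif1 counts was 0.0966, 0.113 and 0.101 in Myc;sgKdm6a and 0.0668, 0.0639 and 0.0639 in comparison lines. Eif1ax, one of the near-identical eIF1A genes between which reads can be divided, had 221, 243 and 264 CPM against 185, 169 and 189 (log2 fold change 0.42, adjusted p = 0.0511). Its partner Eif1a had 234, 286 and 279 CPM against 208, 202 and 228, also without overlap (log2 fold change 0.32, adjusted p = 0.111). The ratio of Eif1a to Eif1ax overlapped between the groups, from 1.06 to 1.17 and from 1.13 to 1.21. Eif1ad overlapped between the groups (log2 fold change 0.32, adjusted p = 0.390).

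The eIF2 complex was represented by Eif2s1, Eif2s2 and Eif2s3x, and 1 of these 3 rose (median log2 fold change 0.51). Eif2s1 encodes the alpha subunit, the one that the stress kinases phosphorylate. It had 257, 288 and 317 CPM in Myc;sgKdm6a and 209.5, 193 and 199 in comparison lines, with no overlap (log2 fold change 0.52, SE 0.11, adjusted p = 0.0340). Eif2s3x, which encodes the GTP-binding gamma subunit, had 120.5, 130.1 and 151 CPM against 107, 78.4 and 97.2 (log2 fold change 0.51, adjusted p = 0.0737). For Eif2s2, the beta subunit gene, the values were 261, 269.6 and 331 CPM against 208, 224 and 279.6, and the groups overlapped (log2 fold change 0.27, adjusted p = 0.261). The Y-linked gamma subunit gene Eif2s3y was at 0 counts in all 6 lines. Of the factors that can deliver initiator tRNA apart from eIF2, Eif2d had 84.8, 69.5 and 63.7 CPM against 43.1, 51.0 and 51.5, with an adjusted p of 0.0563 that was 0.0346 with the length and GC offsets. Eif2a overlapped between the groups, at 214, 194 and 219 against 178, 246 and 155 CPM (log2 fold change 0.12, adjusted p = 0.688).

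Of the complexes with more than 1 member, eIF2B had the highest share of members that rose in edgeR, 3 of 5, and the median log2 fold change of its genes was 0.70. The order depended on the fit: DESeq2 called 2 of 3 eIF2, 3 of 5 eIF2B and 3 of 5 eEF1 genes higher, and with the length and GC offsets 2 of 5 were called in both eIF2B and eEF1. Eif2b3, whose product belongs to the catalytic part of the exchange factor, had 57.0, 64.2 and 77.3 CPM in Myc;sgKdm6a and 36.0, 32.4 and 35.9 in comparison lines (1.90-fold, log2 fold change 0.93, SE 0.16, adjusted p = 0.0206). Eif2b5, which encodes the catalytic epsilon subunit, had 202, 212 and 212 CPM against 155, 108 and 121 (log2 fold change 0.70, SE 0.15, adjusted p = 0.0339, and 0.0523 with the length and GC offsets). The groups did not overlap for either gene. In the regulatory part, which senses phosphorylated eIF2, Eif2b2 rose, with 79.2, 75.8 and 68.4 CPM against 42.0, 43.9 and 35.6 (log2 fold change 0.88, SE 0.14, adjusted p = 0.0188). Eif2b1 had 98.3, 96.6 and 131 CPM against 89.0, 76.9 and 74.9 (log2 fold change 0.44, adjusted p = 0.110). Eif2b4 had 48.3, 54.7 and 77.9 CPM against 45.0, 53.4 and 41.5 (log2 fold change 0.37, adjusted p = 0.270). Of these last 2, which did not pass the test, Eif2b4 overlapped between the groups. The Eif2b5 and Eif2b2 starts shown above are those of genes that rose, but a pyrimidine run was also found in 9 of 38 tested genes that did not pass.

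None of the 4 eIF2 kinase genes passed the test in edgeR or DESeq2, also at an unadjusted p under 0.05 in edgeR (median log2 fold change -0.14). Eif2ak3, the kinase PERK of the endoplasmic reticulum, had 30.7, 22.1 and 28.3 CPM in Myc;sgKdm6a and 57.7, 20.4 and 40.4 in comparison lines, a log2 fold change of -0.55 (SE 0.38, adjusted p = 0.338). Its comparison lines spread more widely than the groups differed. Eif2ak4, the amino acid sensor GCN2, had 50.9, 41.4 and 39.2 CPM against 47.4, 53.9 and 60.5 (log2 fold change -0.30, adjusted p = 0.249). Eif2ak1, the haem-regulated kinase, was at 77.2, 88.4 and 71.9 CPM against 69.5, 65.4 and 67.3, without overlap (log2 fold change 0.23, adjusted p = 0.234). Eif2ak2, the double-stranded RNA sensor PKR, differed little between the group means (log2 fold change 0.01, SE 0.23), with 33.3 to 59.1 CPM among comparison lines. Impact, which inhibits GCN2 activation, is no factor gene by name but belongs to the same control step. It fell, with 36.9, 43.1 and 38.3 CPM in Myc;sgKdm6a and 107, 114.7 and 100.5 in comparison lines (log2 fold change -1.44, SE 0.13, adjusted p = 0.00933).

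For eIF3, the largest initiation factor, all 14 genes were tested, all 14 log2 fold changes were above 0, and 5 genes rose (median 0.28). Eif3f had the largest log2 fold change of all factor genes and was the one that stayed past the threshold in most fits with a line left out, 4 of 6. It lies on chromosome 7 of GRCm38 from 108934417 to 108942951 (ENSMUSG00000031029), and its level was 405, 394 and 424 CPM in Myc;sgKdm6a and 192, 206 and 167 in comparison lines. The means were 408 ± 15.4 and 188 ± 19.4 CPM (SD, n = 3), a 2.17-fold difference (log2 fold change 1.12, SE 0.11, adjusted p = 0.0121). With the length and GC offsets its log2 fold change was 1.02, below the 1.05 of Eif2b3, and with length offsets alone it was also below Eif2b3 (1.03).

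Eif3e, Eif3k, Eif3d and Eif3l were the other eIF3 genes that rose. Eif3e had 433, 401 and 451 CPM in Myc;sgKdm6a and 255, 315 and 237 in comparison lines (log2 fold change 0.67, SE 0.14, adjusted p = 0.0287). Eif3k had 231, 227 and 252 CPM against 176, 135 and 137 (log2 fold change 0.67, SE 0.14, adjusted p = 0.0291). Both were without overlap, as were the next ones. Eif3d, whose product can bind the cap of some mRNAs, had 249, 265 and 289.9 CPM against 182, 184 and 162 (log2 fold change 0.61, SE 0.11, adjusted p = 0.0233), and 2151 bases of its exons overlap those of Gm17638 on the other strand, so that without a stated strand setting reads of the pair cannot be told apart. Eif3l had 421, 423 and 445 CPM against 318, 319.9 and 292 (log2 fold change 0.47, SE 0.09, adjusted p = 0.0276, and 0.0912 with the length and GC offsets).

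The genes of the subunits conserved from yeast to mammals, Eif3a, Eif3b, Eif3c, Eif3g and Eif3i, had 0 of 5 past the test, with a median log2 fold change of 0.20, against 5 of 7 and a median of 0.61 for Eif3d, Eif3e, Eif3f, Eif3h, Eif3k, Eif3l and Eif3m. This division was drawn after the values had been seen, and the difference between the sets was not tested. It also depended on the fit: DESeq2 called 1 of the 5 and 5 of the 7 higher. With the length and GC offsets 0 of the 5 and 4 of the 7 were called, with medians of 0.17 and 0.39. The median transcript lengths of the 2 sets were 3511 and 2590 bases. Eif3b, with the highest level per length among the eIF3 genes (256 and 223 CPM per kilobase in the group means), had 796, 881 and 891 CPM against 735, 682 and 823 and overlapped (log2 fold change 0.20, adjusted p = 0.264). Eif3i had 306, 297 and 347 CPM against 244, 227 and 169 (log2 fold change 0.57, adjusted p = 0.0602) and Eif3h was at 395, 379.7 and 418 against 283, 369 and 289.7 (log2 fold change 0.34, adjusted p = 0.126). Neither of these overlapped between the groups. The log2 fold changes of Eif3a, Eif3c, Eif3g and Eif3m lay between 0.13 and 0.21. Eif3j1 and Eif3j2, near-identical copies whose reads can be divided between them, had values of 0.07 and 0.02. Eif3j2 was at 2.21 to 3.93 CPM in the 6 lines, close to the floor.

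**Figure D4:**
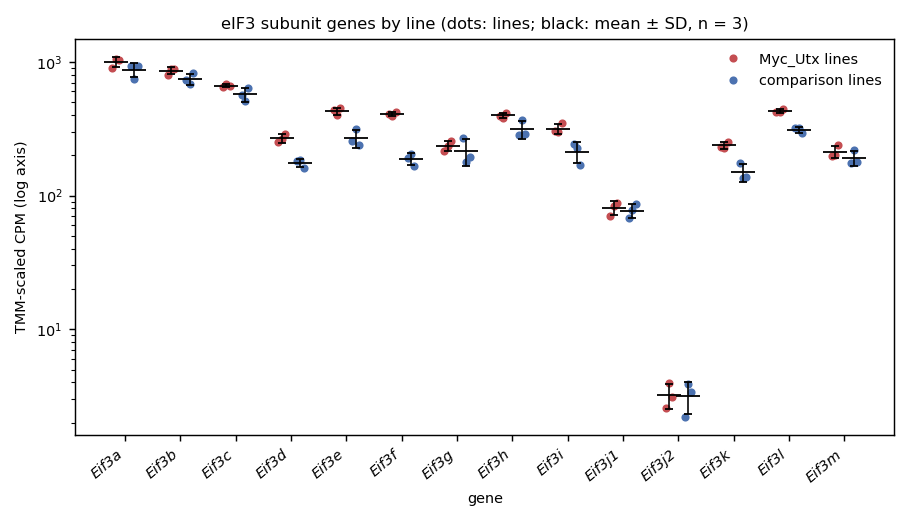
Level of the 14 eIF3 subunit genes (horizontal axis) in TMM-scaled CPM (vertical axis, log scale) in each Myc;sgKdm6a line (red, Myc_Utx) and each comparison line (blue), with the group mean and SD (black, n = 3). Eif3f has the widest gap between the groups, at 394 to 424 against 167 to 206 CPM.

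Among the 10 tested eIF4 genes, the 2 that rose, Eif4g2 and Eif4g3, both encode scaffold proteins (median log2 fold change of the 10, 0.25). Eif4g2 (also DAP5), which lacks the eIF4E-binding part and serves initiation away from the cap, had 1692, 1836 and 1924 CPM in Myc;sgKdm6a and 1126, 1233 and 1233 in comparison lines (log2 fold change 0.60, SE 0.11, adjusted p = 0.0221). Eif4g3 had 239.9, 275 and 234 CPM against 142, 181 and 127 (log2 fold change 0.74, SE 0.16, adjusted p = 0.0338). Both had a larger log2 fold change with the length and GC offsets, 0.77 and 0.99. Eif4g1, the main scaffold of eIF4F, had 1512, 1559.7 and 1567 CPM against 1449.6, 1159.8 and 1326, again without overlap (log2 fold change 0.24, adjusted p = 0.200). The ratio of Eif4g2 to Eif4g1 counts was 1.12, 1.18 and 1.23 in Myc;sgKdm6a and 0.777, 1.06 and 0.930 in comparison lines, while that of Eif4g3 to Eif4g1 overlapped, at 0.150 to 0.177 and 0.0958 to 0.156.

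The helicase genes had log2 fold changes of both signs, and none passed the test. Eif4a1 had 1172, 1155 and 1437 CPM in Myc;sgKdm6a and 888, 1091 and 812 in comparison lines (log2 fold change 0.43, SE 0.16, adjusted p = 0.107). Eif4a2 had 225, 199 and 261 CPM against 338, 290.4 and 272 (log2 fold change -0.40, SE 0.14, adjusted p = 0.105) and was 1 of the 2 factor genes with all Myc;sgKdm6a lines below all comparison lines. The counts of Eif4a2 per count of Eif4a1 were 0.192, 0.173 and 0.181 against 0.381, 0.266 and 0.335, a ratio 0.561 times as high in Myc;sgKdm6a lines. This ratio and those of Eif1b to Eif1 and of Eif4g2 to Eif4g1 were the 3 of 12 pairs without overlap (two-sided exact permutation p = 0.1, the smallest possible; 0.4 after adjustment over the 12). For Eif4a3, a helicase of the exon junction complex and not of eIF4F, the log2 fold change was 0.29 (adjusted p = 0.114). The helicase cofactors Eif4b (1477, 1246 and 1296 against 1200.2, 1260.2 and 893 CPM) and Eif4h (564, 598 and 614 against 560.2, 571 and 599.7 CPM) overlapped between the groups, and Eif4h had the log2 fold change nearest to 0 of the eIF4 genes, 0.04.

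The cap-binding gene Eif4e and its inhibitors did not pass the test either. Eif4e had 169.9, 193 and 218 CPM in Myc;sgKdm6a and 156, 178 and 186 in comparison lines (log2 fold change 0.16, SE 0.13, adjusted p = 0.432), and Eif4e2, which represses translation at the cap, had 143, 181 and 178 against 139.7, 142 and 176 (log2 fold change 0.14, adjusted p = 0.549). Eif4ebp1 had 117, 123 and 145 CPM against 157, 108 and 156 (log2 fold change -0.13, SE 0.18, adjusted p = 0.642), and Eif4ebp2 had 261, 331 and 302 against 307, 226 and 293 (log2 fold change 0.12, SE 0.16, adjusted p = 0.635). In all 4 the groups overlapped. Eif4ebp1 counts per Eif4e count were 0.691, 0.638 and 0.663 in Myc;sgKdm6a and 1.01, 0.606 and 0.838 in comparison lines, Eif4ebp2 counts per Eif4e count were 1.53, 1.72 and 1.39 against 1.97, 1.27 and 1.57, and neither ratio separated the groups. Eif4enif1, the eIF4E transporter, had 127, 140.1 and 139.8 CPM against 157, 154 and 176 and was the other gene with all Myc;sgKdm6a lines below (log2 fold change -0.26, SE 0.11, adjusted p = 0.142). These are mRNA levels, and phosphorylation of the 4E-binding proteins was not measured here.

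**Figure D5:**
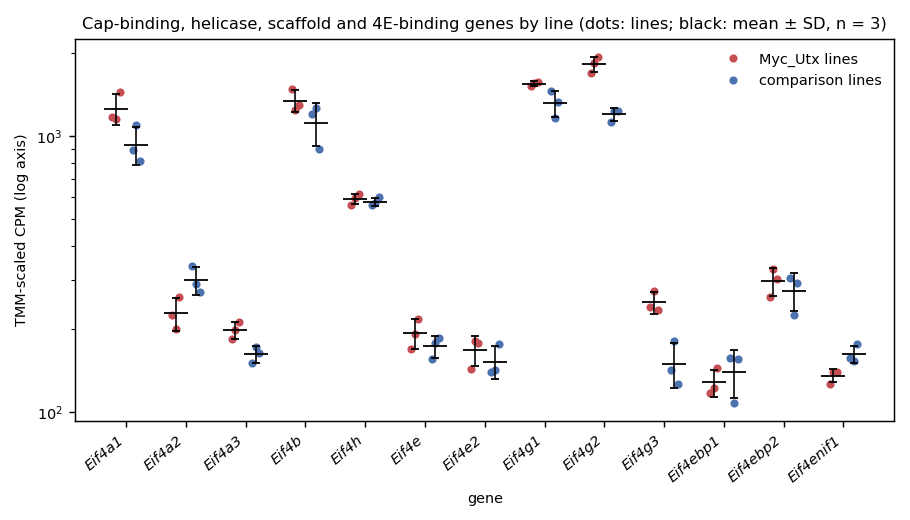
Level of the tested eIF4A, eIF4B, eIF4E, eIF4G, eIF4H and 4E-binding genes (horizontal axis) in TMM-scaled CPM (vertical axis, log scale) in each Myc;sgKdm6a line (red, Myc_Utx) and each comparison line (blue), with the group mean and SD (black, n = 3). Eif4g2 and Eif4g3 are higher in all red lines, Eif4a2 and Eif4enif1 are lower, and Eif4e, Eif4ebp1 and Eif4ebp2 overlap.

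Of the factors of subunit joining and their relatives, Eif5a rose. Its product, which carries the modification hypusine, helps ribosomes through difficult peptide bonds. It had 1885, 2149 and 2259 CPM in Myc;sgKdm6a and 1482, 1509.5 and 1324 in comparison lines (log2 fold change 0.54, SE 0.12, adjusted p = 0.0346, and 0.0638 with the length and GC offsets). Dhps, the first enzyme of hypusine synthesis, rose, with 50.3, 51.9 and 57.2 CPM against 37.8, 38.7 and 35.4 (log2 fold change 0.51, adjusted p = 0.0484, and 0.106 with these offsets). It was the only 1 of 9 listed hypusine and diphthamide genes that rose, where 6.99% of all genes were higher. Dohh, the other hypusine enzyme, did not pass the test (log2 fold change 0.43, adjusted p = 0.158). Eif5a2 had 42.3, 48.7 and 49.9 CPM against 33.8, 32.1 and 41.8, and its ratio to Eif5a counts, 0.0221 to 0.0227 against 0.0213 to 0.0316, overlapped. Eif5b, the GTPase of subunit joining, had 405, 426 and 441 CPM against 294, 223 and 345 (log2 fold change 0.56, adjusted p = 0.0700, and 0.0421 with the offsets), and 1643 bases of its exons overlap Rev1. Eif5, which activates GTP hydrolysis by eIF2, and Eif6, which keeps the ribosomal subunits apart, overlapped between the groups. Eif5 had 434, 505 and 512 CPM against 488, 382 and 463, and Eif6 had 159, 219 and 221 against 156, 167 and 199.

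For the elongation factors, 2 of 5 tested eEF1 genes and Eef2 rose, and the median log2 fold change of the eEF1 genes was 0.60. Eef1a1, the most abundant factor mRNA per length (4148 and 3571 CPM per kilobase in the group means), had 10800.2, 9535 and 10689 CPM in Myc;sgKdm6a and 9725, 9195 and 7792 in comparison lines. Its groups overlapped (log2 fold change 0.22, SE 0.13, adjusted p = 0.294), and processed copies of this gene in the genome can take up some of its reads. The genes of the exchange factor for eEF1A had larger log2 fold changes. Eef1g had 951, 843 and 1044 CPM against 487, 599 and 579 (log2 fold change 0.77, SE 0.13, adjusted p = 0.0211). Eef1d had 318, 325 and 412 CPM against 217, 242 and 238 (log2 fold change 0.60, SE 0.13, adjusted p = 0.0359), and 277 bases of its exons are shared with Naprt on the same strand. Eef1b2 had 995, 891 and 1100.5 CPM against 587, 797 and 574, a log2 fold change as large as that of Eef1d (0.61) with an adjusted p of 0.0554. All 3 were without overlap, and so was Eef1e1, a scaffold protein of the tRNA synthetase complex in spite of its name (log2 fold change 0.54, adjusted p = 0.106).

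Eef2 had 5709, 5147 and 5569 CPM in Myc;sgKdm6a and 3732, 4024 and 3477 in comparison lines, the second highest level per length of all factors (1647 and 1126 CPM per kilobase). The groups were without overlap, 1.46-fold apart (log2 fold change 0.55, SE 0.11, adjusted p = 0.0308). Eef2k, the kinase that inactivates eEF2, had 95.1, 78.5 and 76.2 CPM against 94.7, 49.1 and 81.0 (log2 fold change 0.15, SE 0.25, adjusted p = 0.699). Counts of Eef2k per count of Eef2 overlapped, at 0.0137 to 0.0167 and 0.0122 to 0.0254. Of the methyltransferases that modify the elongation factors, 1 of the 4 tested rose. Eef1akmt2 had 23.5, 18.2 and 22.7 CPM against 10.4, 10.9 and 11.4 (1.96-fold, log2 fold change 0.97, SE 0.20, adjusted p = 0.0289, and 0.0765 with the length and GC offsets). Eef1akmt4 and Eef2kmt were without overlap at log2 fold changes of 0.77 and 0.64 (adjusted p = 0.0655 and 0.0715). Eef1akmt1 had 39.3, 41.2 and 42.3 CPM against 19.4, 41.5 and 25.5, and comparison line 2 lay within the range of the Myc;sgKdm6a lines.

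The 6 genes that were not tested had few counts. Eif2s3y had 0 in every line, Eif4e1b had 1 count in all, and Eif4ebp3, the third 4E-binding protein gene, had 1, 1 and 0 in Myc;sgKdm6a and 1, 1 and 4 in comparison lines. Eef1a2, the form of eEF1A found in muscle and neurons, had 0, 4 and 0 against 19, 0 and 2. Eif4e3 had 9, 7 and 12 counts against 8, 6 and 37, and Eef1akmt3 had 8, 4 and 8 against 12, 13 and 4. At these counts no difference was detectable.

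Other genes of cytosolic translation control were taken from lists written by role. In the initiation accessory list, 3 of 9 rose and 1, Impact, fell. Those that rose were Mcts1 and Denr, which act together in reinitiation and ribosome recycling, and the helicase Dhx29, which helps structured mRNAs through the small subunit. Mcts1 had 47.5, 38.4 and 47.0 CPM in Myc;sgKdm6a and 27.8, 17.1 and 24.4 in comparison lines (log2 fold change 0.94, adjusted p = 0.0407, and 0.112 with the length and GC offsets). Denr had 132, 140.1 and 153 CPM against 88.5, 93.2 and 96.0 (log2 fold change 0.62, adjusted p = 0.0211). Dhx29 had 58.2, 74.1 and 67.3 CPM against 36.5, 38.0 and 43.6 (log2 fold change 0.76, adjusted p = 0.0287). None of the 3 overlapped between the groups. In the list of cap and mRNA 5′ end control, 1 of 13 rose, the poly(A)-binding protein gene Pabpc4, with 404, 393 and 442 CPM against 301, 197 and 246 (log2 fold change 0.74, adjusted p = 0.0371), and 0 fell. A share of 1 in 13 is near the 6.99% of all genes that were higher. Of 6 termination and recycling genes and of 12 genes that signal to the factors, 0 passed in either direction, with medians of 0.32 and 0.05. At an unadjusted p under 0.05, 3 of the 6 were higher, and among the 12, 2 were higher and 3 lower. Over all 11510 genes tested, 1916 were higher and 2110 lower at that threshold. DESeq2 called 0 of the 6 in either direction, and of the 12 it called Rps6 higher and Mtor lower.

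Transcript length was related to the differences across genes. Across the 11510 genes tested, Spearman's rho of log2 fold change with the deposited transcript length was -0.25, and across the 62 factor genes it was -0.27, a description over genes that share the same libraries and are not independent replicates. The factor genes had a median transcript length of 3606.5 bases, against 4441 for all genes tested. Of those at or under the median length, 11 of 31 rose, and of the longer ones 6 of 31. With offsets for length and GC content in each line, 14 factor genes were called higher, 12 of the 17 among them, the median log2 fold change was 0.31, and 6 of the shorter and 8 of the longer genes were called. Over all 11498 genes tested with these offsets, 5.36% were called higher.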

How the data were processed

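The genotype label of each cell line gave its group. The deposited values are whole-number read counts per mouse Ensembl gene and line that the authors did not normalize, with another column of transcript length in bases whose definition is not given in the sources used here. The submitters' processing notes list Trimmomatic 0.36, STAR 2.5.3a, featureCounts 1.6.3, DESeq2 1.20.0 and the build GRCm38. The study's methods instead name HTSeq, a human build and a guide against Mll3 for the first group, whereas the labels name Utx and the table holds mouse genes, with coordinates equal to GENCODE M21 for 95.9% of them. The strand setting is not given, so antisense and overlapping genes cannot be separated. No per-sample column was left unused.

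The groups were compared in edgeR 4.0.16 under R 4.3.3 (filterByExpr with a minimum count of 10, TMM, quasi-likelihood F test over 3 lines against 3, Benjamini-Hochberg adjustment over all genes tested, threshold 0.05). CPM values are TMM-scaled. The SE was obtained from the log2 fold change and its F statistic. Ratios of 2 genes had 0.5 added to each count and were compared with two-sided exact permutation tests. Intervals are not given, and p-values weigh the group difference against the spread between these lines. Alternatives were DESeq2 1.42.0, its size factors, total counts only, other count filters, offsets for transcript length, offsets for length and GC content (natural splines with 5 degrees of freedom, MASS 7.3.60.0.1), which were added after seeing the data, another pseudocount of 1, and leaving out each line. The procedure was tested on simulated data.

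The members, complexes, lists and tests were chosen with earlier results of these data known. Values in every line are given for members past the adjusted p, for those with the highest level per length or the highest or lowest log2 fold change in a complex or role, and for the genes of the ratios; of other genes, those of the lists past the adjusted p, and Kdm6a. The gene targeted in the comparison lines is not reported here. Genes near the threshold, the gene overlaps and the markers with values were named after their values were seen. The lists use the table's name Gcn1l1 for Gcn1. Promoters are those of RefSeq (GRCm38.p6).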

Additional observations from a re-analysis of the deposited data

Results flagged for a closer look

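One of the rows left out of the comparison held a signal. The pseudogene Eif4a-ps4 was counted 43, 59 and 55 times in Myc;sgKdm6a and 51, 41 and 70 times in comparison lines, above the 3 counts taken as the floor, and its highest value was 70. The groups overlapped. The other 7 pseudogene rows had at most 4 counts in any line.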

How the results depend on the processing

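No paired analysis was possible because no replicate number occurs in both groups. With total counts only, the other translation genes counted 4 higher and 3 lower, against 7 and 1, and 2 were lower with transcript length offsets, with length and GC offsets and with DESeq2. The median log2 fold change of the factor genes was 0.28 with transcript length offsets, and 3.85% of factor genes had a pyrimidine start exactly at the RefSeq start. The median over all genes was -0.23 without a filter and -0.26 in DESeq2, each on more genes of low count.

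Members whose log2 fold change turned sign had values near 0: with at least 10 counts in every line Eif3j2 (-0.0165), Eif4h (-0.00595) and Eif2ak2 (-0.0271), with DESeq2 size factors Eif2ak2 (-0.00422), with total counts only Eif3j2 (-0.0408), Eif4h (-0.0281) and Eif2ak2 (-0.0468), with transcript length offsets Eif3g (-0.0811), Eif3j2 (-0.148) and Eif3m (-0.00482), and with length and GC offsets Eif3g (-0.0660), Eif3j2 (-0.230) and Eif3m (-0.0878).

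With a line left out, members called higher ranged from 0 to 20, those of eIF2B from 0 to 3, of eIF3 from 0 to 6, of eIF4 from 0 to 3 and of eEF1 from 0 to 3, other translation genes from 0 to 6 higher and 0 to 3 lower, and the median from 0.30 to 0.45. Sign changes occurred for Eif3j2 (-0.190 to 0.190), Eif3j1 (-0.0247 to 0.180), Eif2ak2 (-0.154 to 0.296), Eif4ebp2 (-0.00690 to 0.222), Eef2k (-0.0742 to 0.348), Eif2a (-0.0243 to 0.331) and the log2 ratio differences of Eif4ebp2 to Eif4e (-0.193 to 0.124), Eif4e2 to Eif4e (-0.0895 to 0.0350) and Eif5a2 to Eif5a (-0.261 to 0.0235). The causes were not tested. Fewer lines also mean fewer degrees of freedom, and 3 lines against 3 give no exact p below 0.1.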

Other observations

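Among 9 mitochondrial translation factor genes, 2 rose and 0 fell (median log2 fold change 0.23). They were the genes of the mitochondrial elongation factor EF-Tu and of its exchange factor. Tufm had 152.6, 159 and 157 CPM in Myc;sgKdm6a and 89.6, 76.6 and 72.3 in comparison lines (log2 fold change 0.98, SE 0.12, adjusted p = 0.0141). Tsfm had 48.1, 52.4 and 58.6 CPM against 26.4, 28.9 and 25.5 (log2 fold change 0.98, SE 0.15, adjusted p = 0.0175). Neither gene overlapped between the groups, and both stayed past the threshold with the length and GC offsets (adjusted p = 0.0210 and 0.0222).

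Of the 9 genes for hypusine and diphthamide, the modifications of eIF5A and eEF2, Dhps alone passed (1 higher, 0 lower, median 0.16), and DESeq2 called 1 higher. A share of 1 in 9 is 11.1%, where 6.99% of all genes were higher. Of 10 genes of the multisynthetase complex, which holds several aminoacyl-tRNA synthetases together, 0 passed in either direction in edgeR, and 0 were higher in DESeq2 (median 0.16). At an unadjusted p under 0.05, 1 of the 10 was higher and 1 lower, against 1916 and 2110 of all 11510 genes tested. Over all 68 genes of the 7 lists, 7 rose (10.3%, where 6.99% of all genes were higher) and 1 fell, with a median log2 fold change of 0.19.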
